A study of Mus musculus with 2 samples.

Results

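The 10 genes described here encode inflammasome sensors (Nlrp3, Nlrc4 and Nlrp1b), the inflammasome adaptor (Pycard), 2 inflammatory caspases (Casp1 and Casp4), the pore-forming gasdermin D (Gsdmd), and the peptidoglycan receptors Nod1 and Nod2 with their kinase Ripk2. They were chosen by gene symbol among the 55536 mouse genes of the tables, and all 10 were found. Polyadenylated RNA was sequenced from bone-marrow-derived macrophages, primary cells grown from the marrow of C57BL/6J mice, in 1 group of 2 libraries, which the labels call biological replicates 1 and 2. Both had been stimulated for 120 minutes at 100 ng/ml, with lipid A by the free-text description but with a protein named lipoprotein A by the treatment and source fields, and this disagreement could not be settled from the files. Both name 1 donor record and nothing says that they came from different animals or cultures, so the spread between them may be technical. No unstimulated libraries were analysed here, so the values are levels after stimulation and show no response to it. In these bulk samples, fewer cells of a type and less RNA per cell cannot be told apart.

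An inflammasome is a cytosolic complex in which a sensor protein, once triggered, gathers the adaptor ASC (the product of Pycard) and activates caspase-1. Caspase-1 then matures interleukin-1 beta and interleukin-18 and cuts gasdermin D, whose fragments form pores in the plasma membrane and lead to pyroptosis. Mouse caspase-11, the product of Casp4, binds lipopolysaccharide inside the cell and also cuts gasdermin D. NOD1 and NOD2 sense peptidoglycan fragments and signal through the kinase RIPK2 to NF-kB rather than through an inflammasome. In macrophages a Toll-like receptor signal is known to raise the Nlrp3 and Il1b transcripts, a step called priming.

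Levels are given in TPM, which scales abundance to transcript length and library size, so that genes can be compared within a library. Each library came with 2 quantifications of the same reads, one with the column names of RSEM, used throughout unless stated, and a second with those of kallisto. A value with ± is the mean and SD of the libraries (n = 2), and no p-value is given because there is only 1 group. Total counts were 33272561 in replicate 1 and 50266361 in replicate 2, so that a gene with 0 counts could have up to 0.0902 CPM in replicate 1 and 0.0597 CPM in replicate 2. CPM scales counts to library size, and this limit is 3 counts and covers counting error only. All 8 macrophage markers reached 1 TPM in both libraries. Of 10 granulocyte markers 5 did, with a summed level of 562 TPM in replicate 1 and 102 TPM in replicate 2, and of 4 megakaryocyte and platelet markers 2 did, with 932 and 238 TPM, of which Pf4 alone held 916 and 236 TPM. The 5 granulocyte markers that did were S100a8 (167 and 20.5 TPM), S100a9 (266 and 41.2 TPM), Ngp (67.5 and 3.21 TPM), Ltf (11.45 and 1.76 TPM) and Csf3r (45.25 and 34.35 TPM). Ly6g, a granulocyte marker that did not and was singled out after its values were seen, was at 0.27 and 0 TPM. No T cell, NK cell, mast cell or erythroid marker reached 1 TPM in both libraries. Of the B cell and dendritic cell lists, 1 marker of 4 did in each. The part of these cells in the levels below was not tested.

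Each of the 10 genes reached 1 TPM in both libraries, and their levels ran from 1.91 TPM for Nlrp1b to 214 TPM for Nlrp3 as means of both libraries. The median of the 10 was 65.1 TPM, beside 14.1 TPM over the 10285 genes that reached 1 TPM in both. By mean level the order was Nlrp3, Casp4, Casp1, Ripk2, Gsdmd, Pycard, Nod1, Nod2, Nlrc4 and Nlrp1b. Casp4 and Casp1, Casp1 and Ripk2, and Ripk2 and Gsdmd are neighbours whose ranges over the libraries overlapped. Casp1 was above Ripk2, and Gsdmd above Ripk2, in replicate 1, and both orders turned round in replicate 2. The order of Pycard and Nod1 held in the first quantification but not in all 4 sets of values.

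**Figure D1:**
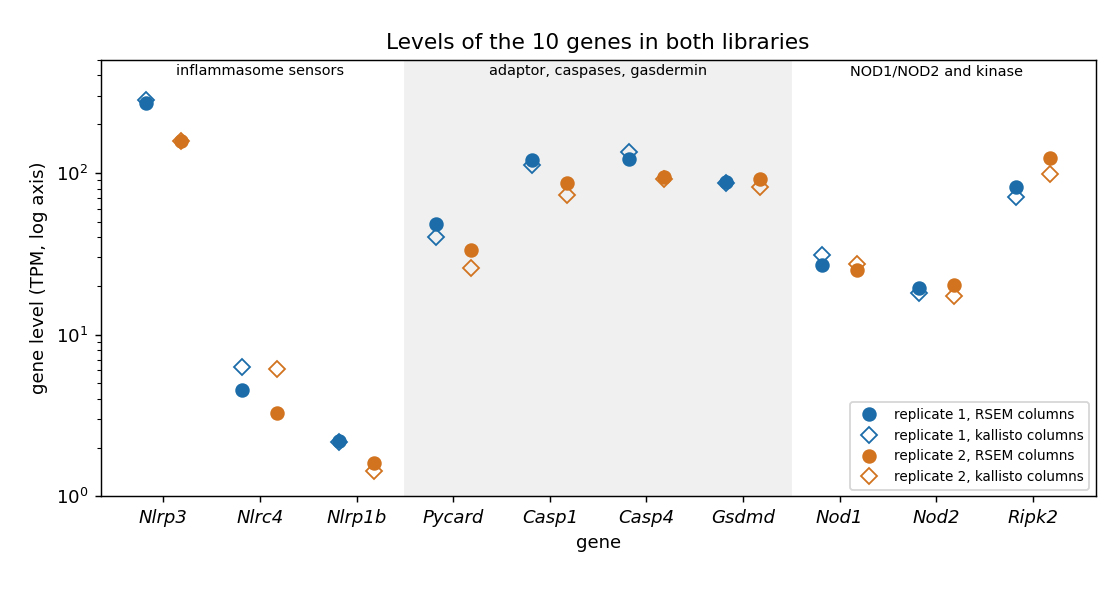
Level of each gene in TPM on a log axis, with replicate 1 left of replicate 2; filled circles are the RSEM columns and open diamonds the kallisto columns of the same library. Nlrp3 stood highest and Nlrc4 and Nlrp1b lowest in both libraries, and the open diamonds of Nlrc4 lie above its circles.

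Among the sensors, Nlrp3 was by far the most abundant transcript. Nlrp3, whose product responds to potassium efflux, crystals and pore-forming toxins, stood at 271 TPM in replicate 1 and 158 TPM in replicate 2 (214 ± 80.2 TPM, SD, n = 2), from 20084 and 18705 counts. This placed it at percentile 93.7 of the expressed genes, and it was the only member above 100 TPM in both libraries. The gene lies on the plus strand of mm10 at chr11:59541568-59566956.

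Nlrc4 and Nlrp1b, the other two sensors, were close to the low end of expressed genes, at percentiles 19.1 and 6.35. Nlrc4, which joins NAIP receptors that detect flagellin and secretion system proteins, stood at 4.53 TPM in replicate 1 and 3.26 TPM in replicate 2 (3.90 ± 0.898 TPM), from 447 and 477 counts. Nlrp1b, whose product in some mouse strains is triggered by the anthrax lethal factor protease, stood at 2.21 and 1.60 TPM (1.91 ± 0.431 TPM), from 197 and 209 counts. Nlrp3 was 59.8 times the level of Nlrc4 in replicate 1 and 48.3 times in replicate 2, and 123 and 98.5 times the level of Nlrp1b. In the second quantification Nlrp3 was 45.0 and 25.7 times the level of Nlrc4, and with complete coding transcripts alone it was 261 and 184 times that of Nlrp1b. Nlrc4 lies on the minus strand at chr17:74425438-74459142 and Nlrp1b on the minus strand at chr11:71153102-71230733.

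The level of Nlrc4 depended on how the reads were assigned. The second quantification gave it 770 and 1231 counts and 6.30 and 6.16 TPM, which is 1.72 times the first quantification's counts in replicate 1 and 2.58 times in replicate 2. Over the genes at 1 TPM or more in both libraries the median of that ratio was 1.08 and 1.11. Of the 4837 different stretches of 31 bases in the Nlrc4 transcripts, 3.35% also occur in transcripts of 1352 other genes. An annotated pseudogene, CT033749.1, lies within the Nlrc4 locus on the same strand, and it had 1 and 0 counts. Whether either accounts for the difference was not tested. Nlrp1b shared 6.07% of its 31-base stretches with its paralogs Nlrp1a and Nlrp1c-ps, so reads may be split among these genes and its level is uncertain. The second quantification gave Nlrp1b 2.18 TPM in replicate 1 and 1.44 TPM in replicate 2, against 2.21 and 1.60 TPM in the first.

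Pycard, Casp1 and Gsdmd, which make up machinery downstream of the sensors, and Casp4, whose product binds lipopolysaccharide itself, stood at intermediate to high levels. Casp1, which encodes the protease that matures interleukin-1 beta, stood at 120 TPM in replicate 1 and 87.0 TPM in replicate 2 (104 ± 23.5 TPM), from 3291 and 3505 counts. Casp4 lies next to it on chromosome 9 and stood at 122 and 93.7 TPM (108 ± 20.2 TPM), from 2900 and 3390 counts. Casp4 was 1.02 times the level of Casp1 in replicate 1 and 1.08 times in replicate 2. In the second quantification it was 1.19 and 1.25 times that level, and with complete coding transcripts alone 0.683 and 0.794 times, so the order of the 2 caspase genes depended on the transcripts counted. Casp1 spans chr9:5298517-5307265 and Casp4 chr9:5308828-5336783, both on the plus strand.

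Gsdmd, on the plus strand at chr15:75862327-75867408, was among the closest between the libraries, at 87.3 TPM in replicate 1 and 91.6 TPM in replicate 2 (89.5 ± 3.05 TPM). Pycard, on the minus strand at chr7:127989708-127993867, stood at 48.4 and 33.2 TPM (40.8 ± 10.7 TPM), from 1122 and 1519 counts. Nlrp3 was thus 5.60 times the level of its adaptor in replicate 1 and 4.75 times in replicate 2, and 2.25 and 1.81 times the level of Casp1. The ratio to Pycard depended on the transcripts counted: with complete coding transcripts alone, Nlrp3 was 20.1 times the level of Pycard in replicate 1 and 13.1 times in replicate 2.

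The NOD receptors stood below the caspase and gasdermin genes, and their kinase stood above the receptors. Nod1, on the minus strand at chr6:54923949-54972612, stood at 27.0 TPM in replicate 1 and 25.2 TPM in replicate 2 (26.1 ± 1.24 TPM). Nod2, on the plus strand at chr8:88647315-88688474, stood at 19.4 and 20.2 TPM (19.8 ± 0.580 TPM). The 2 receptor genes were among the closest between the libraries, and Nod1 was 1.39 times the level of Nod2 in replicate 1 and 1.25 times in replicate 2.

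Ripk2, which encodes the kinase shared by both receptors, stood at 81.7 TPM in replicate 1 and 124 TPM in replicate 2 (103 ± 30.1 TPM), from 4440 and 9947 counts. It was 3.03 times the level of Nod1 in replicate 1 and 4.93 times in replicate 2, and 4.21 and 6.15 times the level of Nod2. Ripk2 lies on the minus strand at chr4:16122733-16163647, and a microRNA gene, Gm22690, overlaps it and had 0 counts in both libraries in the first quantification.

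With 1 group, the libraries could be compared only with each other, as replicate 1 over replicate 2, with 1 library on each side and no test. It was computed as a log2 ratio of CPM after scaling by trimmed mean of M-values (TMM), where the mean count of a gene was at least 50. None of the 10 genes was 2-fold or more apart, while 3.96% of the 10445 genes with that count were. Ripk2 was the only member 1.5-fold or more apart, with a log2 ratio of -0.72, and 14.6% of all genes were that far apart. Nlrp3 followed with 0.55, then Nlrp1b, Casp1 and Nlrc4 with 0.36, 0.36 and 0.35, and Casp4 with 0.22. Gsdmd, Nod2 and Nod1 were lower in replicate 1, with -0.20, -0.16 and -0.06, and Pycard was at 0.01.

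Of the 10 ratios 6 were above 0 and 4 below, with a median of 0.12, beside -0.01 over all genes. The tally and the sign of the median turned round in the second quantification, with 4 above 0, 6 below and a median of -0.03 (all genes -0.01). On the scale of log2(TPM + 1), 7 were above 0 and the median was 0.34 (all genes 0.09). The median absolute log2 ratio was 0.29 for the 10 genes and 0.24 for all genes. The spread between the libraries, a biological coefficient of variation of 21.5% from edgeR over 12178 genes, corresponds to an SD of 0.44 for such a ratio. On this scale the 3 sensor genes and both caspase genes were higher in replicate 1 and the 2 NOD receptor genes and Ripk2 lower, but only Nlrp3 and Ripk2 lay further from 0 than that SD. Nlrc4 and Pycard turned round in the second quantification, with ratios of -0.20 and -0.0037, and Nod1 on the scale of log2(TPM + 1), with 0.09. The granulocyte markers with a mean count of at least 50 had a median ratio of 2.91, with 4 of 5 at 2-fold or more higher in replicate 1, and the macrophage markers one of -0.14. All 3 megakaryocyte and platelet markers with such a count were 2-fold or more higher in replicate 1, with a median of 1.99, and the 3 dendritic cell markers had a median of 0.62, with 1 of them that far apart. Their part in the members' ratios was not tested.

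**Figure D2:**
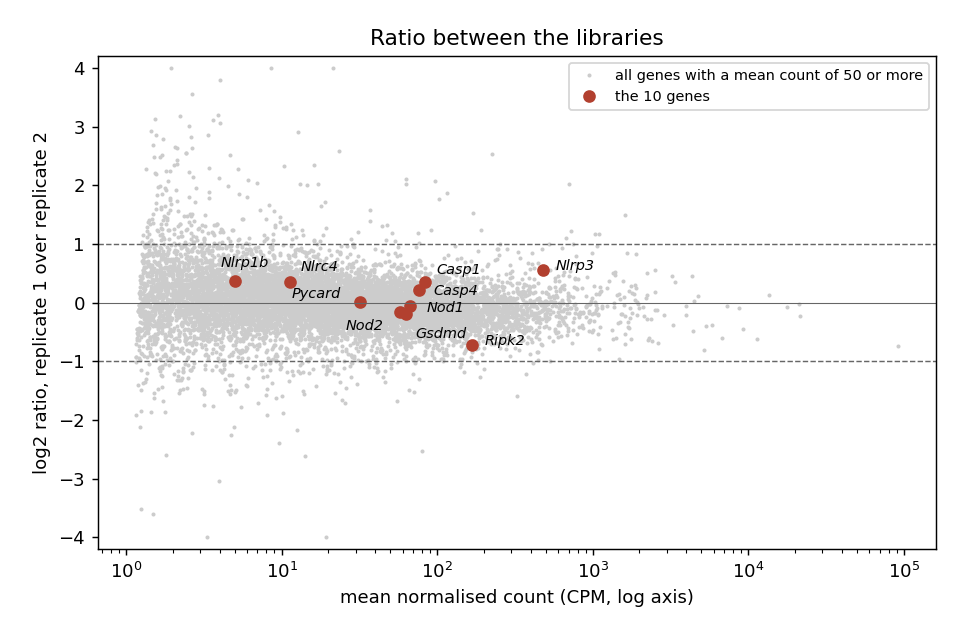
Log2 ratio of TMM-scaled CPM, replicate 1 over replicate 2, against mean CPM on a log axis, for the 10 genes (red) and all 10445 genes whose mean count was at least 50 (grey); dashed lines mark 2-fold, and ratios beyond the axis are drawn at its edge. All 10 genes lie between the dashed lines, with Nlrp3 at 0.55 and Ripk2 at -0.72 as the highest and lowest.

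Every one of the 10 genes had the same leading transcript in both libraries and both quantifications, but the share it held ranged widely. Shares are percentages of the gene's TPM. Casp1 has 1 annotated transcript. Ripk2-201 held 99.4% of Ripk2 in replicate 1 and 100% in replicate 2, Nod2-203 held 97.0% and 96.8% of Nod2, and Nlrc4-201 held 95.6% and 97.3% of Nlrc4. In the second quantification Nod2-203 held 89.1% and 89.9%. The level of these 4 genes thus lay largely in 1 complete coding transcript.

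**Figure D3:**
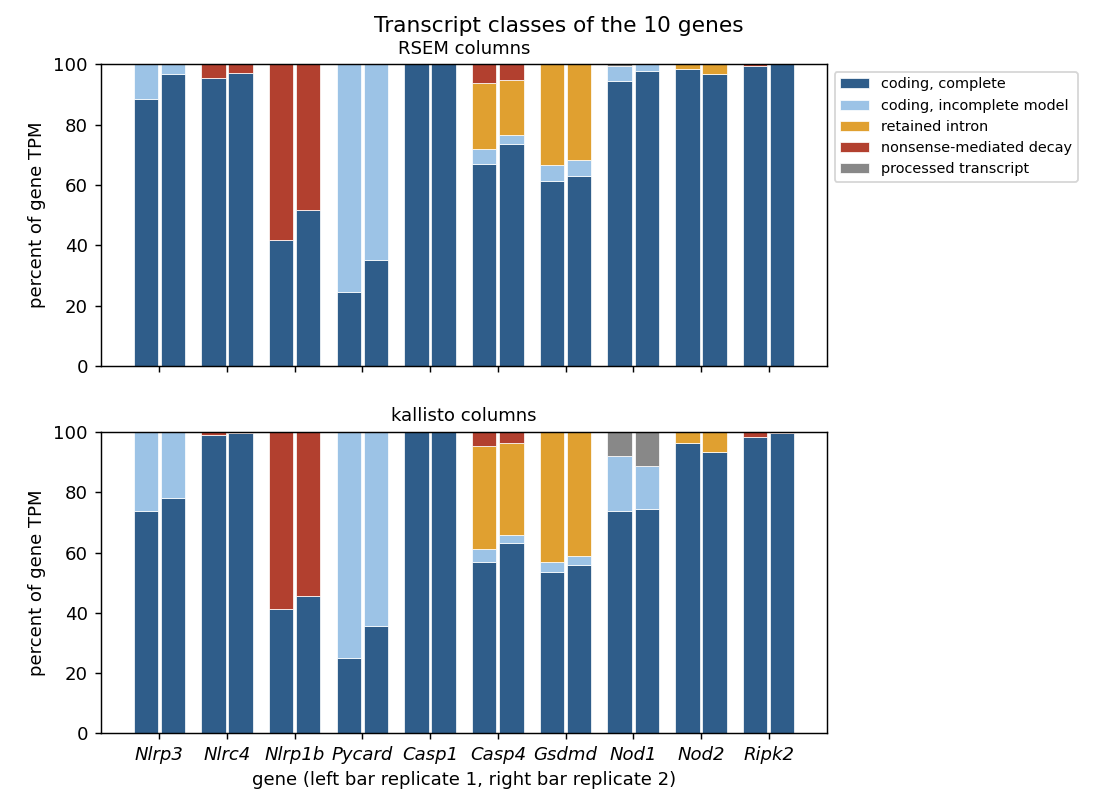
Percent of each gene's TPM in each annotated transcript class, with the left bar for replicate 1 and the right bar for replicate 2, in the RSEM columns (top) and the kallisto columns (bottom). Casp1, Ripk2, Nod2 and Nlrc4 are nearly all complete coding transcripts, while incomplete models fill most of Pycard, retained introns a part of Gsdmd and Casp4, and a decay transcript more than any other transcript of Nlrp1b.

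Nlrp3 transcripts came from 2 annotated start regions 1118 bases apart, and the upstream one led in the first quantification. Nlrp3-201, which begins at the upstream start and has 11 exons, held 75.4% of Nlrp3 TPM in replicate 1 and 70.3% in replicate 2 (72.9% ± 3.66). Nlrp3-202, which begins at the downstream start, held 13.0% and 26.6%. Both encode the same length of protein, from a coding sequence of 3099 bases. The third model, Nlrp3-203, is 676 bases long and incomplete, begins 70 bases after Nlrp3-202, and held 11.6% and 3.12%.

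In TPM, the lead of the upstream start depended on the quantification. In the second quantification Nlrp3-201 held 57.7% in replicate 1 and 45.1% in replicate 2, and the 2 models from the downstream start together held 42.3% and 54.9%. The complete Nlrp3-202 alone held 16.1% and 32.9% there, below Nlrp3-201 in both libraries. In counts of the second quantification the upstream start led in both libraries. Nlrp3-201 had 16479 and 11766 counts, Nlrp3-202 had 4702 and 8791, and Nlrp3-203 had 886.0 and 699.8. In the first quantification the authors' deposited 95% credibility bounds for Nlrp3-201 were 190 to 202 TPM in replicate 1 and 102 to 112 TPM in replicate 2. Those for Nlrp3-202 were 28.3 to 39.6 TPM and 35.3 to 45.0 TPM. The bounds of the 2 transcripts did not overlap in either library, and they cover read assignment within 1 quantification only. In replicate 1 the TPM of Nlrp3-201, 204 TPM, lay above its own bounds, so the bounds need not bracket the TPM used here.

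**Figure D4:**
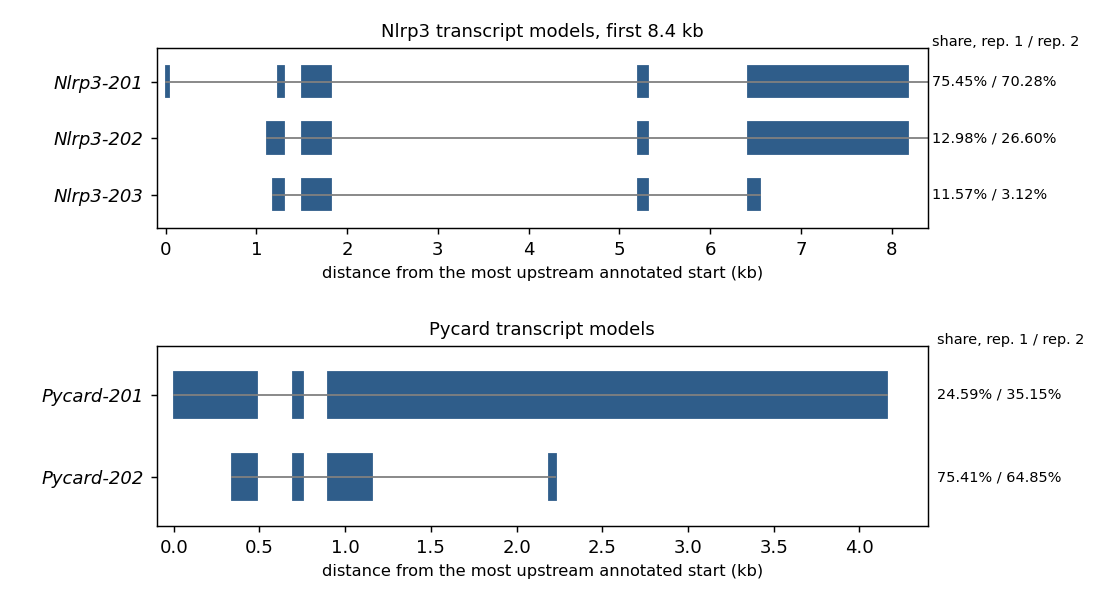
Exons (boxes) and introns (lines) of the annotated Nlrp3 and Pycard transcripts, by distance in kb from the most upstream annotated start, with each transcript's share of gene TPM in replicate 1 and replicate 2 at the right. The first exon of Nlrp3-201 lies 1.1 kb upstream of the Nlrp3-202 start, and Pycard-202 is short and spans part of the locus.

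The windows around both annotated Nlrp3 starts are shown here because the start decides which transcript is made. They run from 250 bases before to 50 bases after the RefSeq start (GRCm38.p6, the same build as mm10) and are printed 5′ to 3′ on the gene's strand. Capitals in these and the later sequences mark matches to 4 searched motifs on either strand. These were the NF-kB consensus, the interferon response core (GAAA, NN for any 2 letters, then GAAA), the TATA box TATAAA and the PU.1-type ETS core GGAAGT. The first window is chr11:59541319-59541618 and the second chr11:59542436-59542735, both on the plus strand.
Nlrp3 upstream start: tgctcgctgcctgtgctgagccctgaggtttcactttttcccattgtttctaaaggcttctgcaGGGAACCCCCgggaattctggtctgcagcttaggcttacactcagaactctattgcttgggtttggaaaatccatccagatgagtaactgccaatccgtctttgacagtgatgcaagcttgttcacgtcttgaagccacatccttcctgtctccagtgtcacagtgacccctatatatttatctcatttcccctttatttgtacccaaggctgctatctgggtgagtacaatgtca
Nlrp3 downstream start: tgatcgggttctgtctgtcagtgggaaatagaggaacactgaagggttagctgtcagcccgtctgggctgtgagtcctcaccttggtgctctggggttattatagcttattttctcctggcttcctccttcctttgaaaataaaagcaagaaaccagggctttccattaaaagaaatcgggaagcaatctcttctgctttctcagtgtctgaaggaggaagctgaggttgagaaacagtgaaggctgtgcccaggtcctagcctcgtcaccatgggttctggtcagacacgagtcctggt

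The upstream Nlrp3 window held 1 match to the NF-kB consensus, beginning 186 bases before the start, and the downstream window held no match to any of the 4 motifs. Over all 32851 promoter windows of the same length, 8.46% held the NF-kB consensus, 3.44% the interferon response core, 13.6% the TATA box and 23.8% the ETS core. RefSeq gave 12 windows for 8 of the 10 genes, with none for Gsdmd and Ripk2. The NF-kB consensus was found in 3 of the 12 windows, those of Nlrp3 and Casp4. The ETS core was found in 6 of them, from 5 genes (Casp4, Nlrc4, Nlrp1b, Nod1 and Pycard). The Casp4 windows overlap and hold the same matches, so these are counted more than once. No window of the 8 genes held the interferon response core or the TATA box in those letters. A match is a run of letters and says nothing of binding.

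Nod1 has 2 annotated starts of complete coding transcripts, and the upstream one led in all 4 sets of values. Its 4 other models begin further downstream inside the gene and are incomplete or non-coding. Nod1-201, from the upstream start, held 78.4% of Nod1 TPM in replicate 1 and 85.7% in replicate 2. Nod1-202, which begins 951 bases downstream and has a coding sequence of the same length, held 16.2% and 12.2%. In the second quantification Nod1-202 held 1.53% and 0%, Nod1-201 held 72.2% and 74.5%, and the incomplete model Nod1-203 held 17.4% and 13.6%. The remaining share of each library lay in the other 3 models. The low level of the downstream start was thus common to both quantifications and its exact share was not.

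The Nod1 windows are printed to set beside those of Nlrp3. The upstream window, chr6:54972563-54972862 on the minus strand, held no match to the 4 motifs. The downstream window, chr6:54971612-54971911 on the minus strand, held 1 ETS core beginning 156 bases before its start.
Nod1 upstream start: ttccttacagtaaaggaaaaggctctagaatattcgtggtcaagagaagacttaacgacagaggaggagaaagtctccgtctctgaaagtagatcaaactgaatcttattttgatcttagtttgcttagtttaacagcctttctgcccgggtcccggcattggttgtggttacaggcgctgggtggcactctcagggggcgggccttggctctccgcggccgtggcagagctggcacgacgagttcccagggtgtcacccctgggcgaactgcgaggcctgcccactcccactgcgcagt
Nod1 downstream start: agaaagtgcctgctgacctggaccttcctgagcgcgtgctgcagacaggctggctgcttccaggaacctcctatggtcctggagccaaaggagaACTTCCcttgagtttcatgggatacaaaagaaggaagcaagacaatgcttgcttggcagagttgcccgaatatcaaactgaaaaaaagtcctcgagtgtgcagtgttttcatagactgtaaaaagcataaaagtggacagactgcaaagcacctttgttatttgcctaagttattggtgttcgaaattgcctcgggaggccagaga

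Nlrp1b was the only member whose leading transcript is annotated as subject to nonsense-mediated decay. That transcript, Nlrp1b-205, held 58.3% of Nlrp1b TPM in replicate 1 and 48.0% in replicate 2, and the coding transcript Nlrp1b-203 held 41.7% and 46.0%. Nlrp1b-205 belongs to the upstream start and Nlrp1b-203 to a start 29.3 kb downstream. The coding transcript Nlrp1b-204 begins at the same base as Nlrp1b-205 and held 0% and 5.95%. With it, the upstream start held 58.4% and 53.8%. The complete coding transcripts together came to 0.92 TPM in replicate 1 and 0.83 TPM in replicate 2.

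The order of the 2 Nlrp1b transcripts was not firm at a depth of 197 and 209 counts. The authors' deposited 95% credibility bounds in replicate 1 were 0.582 to 1.35 TPM for Nlrp1b-205 and 0.465 to 1.07 TPM for Nlrp1b-203. In replicate 2 they were 0.346 to 0.880 TPM and 0.448 to 0.845 TPM, so the bounds overlapped in both libraries. By the authors' posterior mean share Nlrp1b-205 held 43.9% in replicate 1 and 37.9% in replicate 2, and Nlrp1b-203 held 35.1% and 40.5%, which reverses their order in replicate 2.

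The windows of the 2 Nlrp1b start regions are shown because the 2 leading transcripts begin there. Both regions have annotated coding transcripts, so the start alone does not set the decay label of Nlrp1b-205. The upstream window, chr11:71230684-71230983 on the minus strand, held 1 ETS core beginning 94 bases before the start. The downstream window, chr11:71201407-71201706 on the minus strand, held no match to the 4 motifs.
Nlrp1b upstream start: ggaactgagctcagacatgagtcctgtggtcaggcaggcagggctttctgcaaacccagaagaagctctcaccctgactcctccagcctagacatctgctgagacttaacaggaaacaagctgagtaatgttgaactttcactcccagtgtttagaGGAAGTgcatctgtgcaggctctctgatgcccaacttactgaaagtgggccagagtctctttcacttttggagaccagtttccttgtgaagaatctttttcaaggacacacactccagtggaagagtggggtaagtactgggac
Nlrp1b downstream start: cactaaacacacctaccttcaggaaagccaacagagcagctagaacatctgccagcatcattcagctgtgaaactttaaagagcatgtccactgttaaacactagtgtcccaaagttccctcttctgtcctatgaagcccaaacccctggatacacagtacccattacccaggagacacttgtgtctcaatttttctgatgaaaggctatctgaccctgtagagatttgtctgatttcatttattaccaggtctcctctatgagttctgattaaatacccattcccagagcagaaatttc

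**Figure D5:**
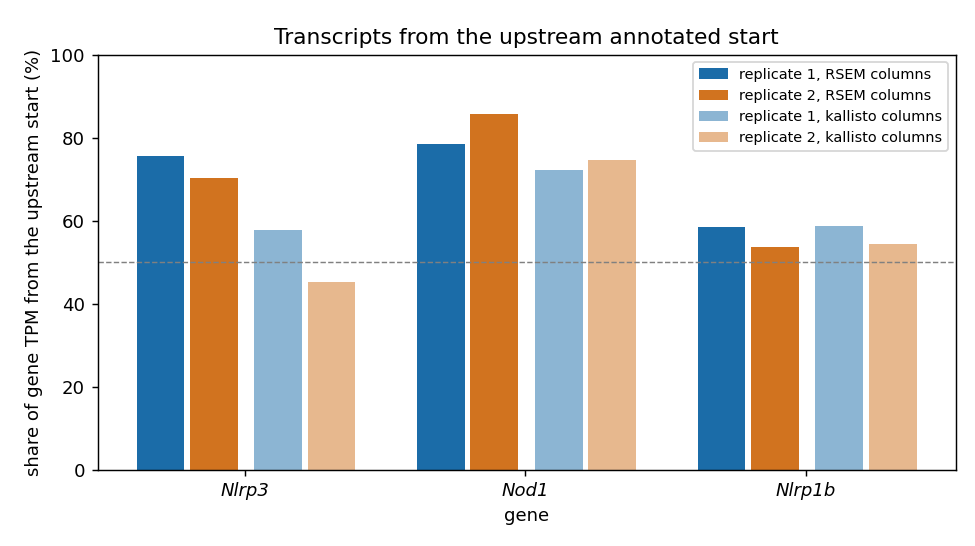
Percent of gene TPM in transcripts from the upstream annotated start of Nlrp3, Nod1 and Nlrp1b, in replicate 1 (blue) and replicate 2 (orange), dark bars for the RSEM columns and light bars for the kallisto columns; the dashed line marks 50%. The upstream share is above the line in every bar except Nlrp3 in replicate 2 of the kallisto columns, at 45.1%.

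Most of the Pycard level in TPM came from a short model with few reads. Pycard-202 is 493 bases long, incomplete, and held 75.4% of Pycard TPM in replicate 1 and 64.9% in replicate 2, but 15.9% and 10.2% of Pycard counts. Its effective length, the length that the TPM calculation divides by, was 216 bases in both libraries, against 3517 and 3515 bases for the complete Pycard-201. Pycard-201 alone stood at 11.9 TPM in replicate 1 and 11.7 TPM in replicate 2. The distance between the libraries in Pycard TPM, a log2 ratio of 0.53 on the TPM + 1 scale beside 0.01 in CPM, therefore lay in Pycard-202, at 36.5 and 21.5 TPM.

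By complete coding transcripts alone Pycard stood below Nod1 and Nod2, which had 25.5 and 24.7 TPM and 19.1 and 19.6 TPM in complete coding transcripts. Pycard transcripts shared 12.7% of their 31-base stretches with other genes, mostly with Gm45205, which overlaps the locus on the opposite strand and had 16.1 and 2.70 counts. Whether the counting used strand was not given in the sources used here. It is thus not known whether the reads of Pycard and Gm45205 were told apart where the genes overlap.

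Casp4 and Gsdmd had sizeable shares in transcripts annotated as retained introns. Casp4-201, the complete coding transcript, held 67.1% of Casp4 TPM in replicate 1 and 73.7% in replicate 2, and 3 retained-intron transcripts together held 21.9% and 18.3%. Gsdmd-201 held 61.4% and 63.0% of Gsdmd TPM, and 3 retained-intron transcripts held 33.4% and 31.8%. For both genes the second quantification gave more to retained introns, 34.3% and 30.5% for Casp4 and 43.3% and 41.0% for Gsdmd.

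The Gsdmd share, like that of Pycard, was far smaller in counts. Its retained-intron transcripts held 9.82% of Gsdmd counts in replicate 1 and 8.50% in replicate 2, and most of their TPM lay in Gsdmd-205, a model of 406 bases at 18.8 and 20.2 TPM. For Casp4 the share in counts was 17.8% and 14.6%, close to that in TPM. In complete coding transcripts alone Gsdmd stood at 53.6 TPM in replicate 1 and 57.8 TPM in replicate 2, Casp4 at 82.1 and 69.0 TPM, and Casp1 at 120 and 87.0 TPM. On this scale Casp1 was above Casp4, the other way round from the whole-gene values, and both remained below Nlrp3 at 240 and 153 TPM.

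The Casp4 window is shown because it held the most motif matches of the 8 genes. It lies at chr9:5308599-5308898 on the plus strand, around the start of Casp4-201. NF-kB consensus matches begin 93 and 92 bases before the start and overlap each other by all but the end letters. A further one begins 39 bases before it and contains an ETS core at its first letters. The window of the neighbouring Casp1 held no match to the 4 motifs.
Casp4 start: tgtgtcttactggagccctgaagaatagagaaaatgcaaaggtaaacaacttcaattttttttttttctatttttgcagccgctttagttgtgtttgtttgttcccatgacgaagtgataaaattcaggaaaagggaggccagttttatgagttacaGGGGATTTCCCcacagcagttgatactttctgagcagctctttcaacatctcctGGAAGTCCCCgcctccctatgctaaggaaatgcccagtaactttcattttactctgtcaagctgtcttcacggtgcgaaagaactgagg

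Other sensors were mostly low. Of 14 other NLR family and inflammasome sensor genes, 9 reached 1 TPM in both libraries, with a median of 3.17 TPM. Aim2, the sensor of cytosolic DNA, led them at 49.4 TPM in replicate 1 and 65.2 TPM in replicate 2. Nlrc5, a regulator of MHC class I genes, stood at 26.9 and 27.5 TPM, Mefv, which encodes pyrin, at 33.1 and 19.1 TPM, and Naip2, an Nlrc4 partner, at 23.9 and 21.4 TPM.

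Naip2 was thus well above Nlrc4 itself, at 4.53 and 3.26 TPM. Nlrp12 had 0 counts in both libraries in the first quantification. Of the 10 sensors with a mean count of at least 50, 0 were 2-fold or more higher in replicate 1 and 1 was lower, Nlrp1a, with 51 and 169 counts. Of all genes with that count, 2.23% were higher and 1.73% lower by that much.

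Inflammasome substrates, effectors and cofactors were all expressed, with Il1b far above the genes of the machinery. All 12 reached 1 TPM in both libraries, with a median of 25.2 TPM. Il1b, the substrate of caspase-1, stood at 3541 TPM in replicate 1 and 1846 TPM in replicate 2, and Il1a at 2201 and 720 TPM. Ninj1, which mediates rupture of the plasma membrane after pyroptosis, stood at 379 and 369 TPM and Casp8 at 48.9 and 47.1 TPM, while Casp12 was lowest at 1.01 and 1.17 TPM. Il1a was furthest apart, and was the only 1 of the 12 at 2-fold or more higher in replicate 1. Txnip, whose product binds thioredoxin, was the only 1 lower by that much, with 431 and 1287 counts. Over all genes with a mean count of at least 50, 2.23% were higher and 1.73% lower by that much.

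The NOD1 and NOD2 signalling partners were all expressed too. None of the 13 was 2-fold or more apart, beside 3.96% of all genes with a mean count of at least 50. Their median was 30.4 TPM, with Slc15a4 above it at a mean of 54.8 TPM. In replicate 2 most of the Slc15a4 level lay in a model of 166 bases with 9.92 counts. Its complete coding transcript, at 20.3 TPM in replicate 1 and 16.1 TPM in replicate 2, lies below that median, so the median depended on the transcripts counted. Tnfaip3, whose product A20 edits ubiquitin chains, stood at 619 TPM in replicate 1 and 588 TPM in replicate 2, and Slc15a3, a transporter that carries peptidoglycan fragments, at 558 and 515 TPM. Birc3, a ubiquitin ligase that acts on RIPK2, stood at 87.9 and 132 TPM with a log2 ratio of -0.65, the furthest from 0 in the list and of the same sign as that of Ripk2. Tab2, an adaptor of the kinase TAK1, stood at 97.9 and 107 TPM, and its relative Tab1 was lowest at 1.45 and 1.07 TPM. The median ratio of the 13 genes was -0.07, beside -0.01 over all genes, for which the median absolute ratio was 0.24. Of the 13 ratios 11 were below 0 and 2 above, so most of the list had the sign of Ripk2.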

How the data were processed

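Per the file headers, the authors deposited for each library a gene table and a transcript table with expected counts, TPM and, per transcript, the percent of a gene's TPM, under RSEM column names. The 95% credibility bounds (a score of uncertainty on the TPM scale) and posterior means are also the authors' deposited columns. A further deposited table of transcripts, with kallisto column names, holds estimated counts and TPM, and was summed by gene. Both quantifications use the same reads, so they are not replicates. The assembly was mm10, with GENCODE annotation M21 per the deposited descriptions. Which program versions were run, and whether strand was used, is not given in the sources used here. Because TPM divides by effective length, transcripts shorter than the selected fragments can gain weight in it.

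Expected counts were rounded to whole numbers, and spike-in, tRNA and phiX entries were left out of totals. Ratios of replicate 1 over replicate 2 used TMM factors from edgeR 4.0.16 (R 4.3.3) where the mean count was at least 50, and the coefficient of variation used its common dispersion over genes with at least 10 counts in each library. The steps were tested on simulated data. The libraries' counts differed beyond sampling noise (chi-square over degrees of freedom 120.8, at 12177 degrees), so they are not 1 library deposited again. This does not tell separate samples from separate preparations of 1 sample, and n = 2 follows the labels. Transcript classes, starts and shared 31-base stretches came from the GENCODE annotation and transcripts, and promoter windows from RefSeq. Python 3.11.15, numpy 2.4.6, pandas 2.3.3 and matplotlib 3.10.9 were used.

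The 10 genes, the 3 lists of 39 pathway genes, all found, and the 46 markers were chosen with earlier results of these data known, and the motifs with the sequences in view. Genes named from a pathway list are its 4 highest by mean TPM, its lowest and the one with the largest absolute ratio, and no marker falls under it. Txnip, Slc15a4, Pf4, Ly6g and the other granulocyte markers named with their levels were singled out after their values were seen. The alternatives tried were scaling by DESeq2 1.42.0, other minimums of count and TPM, pseudocounts of 1 and 0.1, TPM without mitochondrial genes, posterior means, the second quantification and each replicate alone. Complete coding transcripts alone, and both alternatives for start shares, were added after the data were seen. No p-value was computed, because the labels give 1 group.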

Additional observations from a re-analysis of the deposited data

How the results depend on the processing

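All 10 genes reached 1 TPM in both libraries in the second quantification too, and 8 of them reached 5 TPM in the first. None was 2-fold or more apart under any count minimum, scaling or quantification tried. With each replicate alone, levels and leading shares stayed within 1 SD of their means, as any pair of values must. The upstream start share of Nlrp3 was 51.4% in the second quantification against 72.9% ± 3.66, and that of Nod1 was 73.4% against 82.0% ± 5.19. The median ratio of the 10 genes was -0.03 there against 0.12, and 7 of 10 leading shares moved by more than 1 SD. The levels of 4 genes also moved by more than 1 SD in the second quantification. They were Nlrc4 at 6.23 TPM, Gsdmd at 84.2, Nod1 at 29.4 and Nod2 at 17.6, against 3.90, 89.5, 26.1 and 19.8. Without mitochondrial genes 3 levels moved by more than 1 SD, Gsdmd to 95.6 TPM, Nod1 to 27.9 and Nod2 to 21.1. With posterior means only Nod2 did, to 19.1 TPM. With complete coding transcripts alone Pycard stood at 11.8 TPM against 40.8, Nlrp1b at 0.875 against 1.91, and Gsdmd and Casp4 at 55.7 and 75.5 against 89.5 and 108. The cause of the differences between quantifications was not tested. With 2 libraries an SD is itself poorly known, and depth limits the transcripts of Nlrp1b and Nlrc4 most. No paired analysis was possible because the labels give 1 group.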

Other observations

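The genes in this section were chosen after their values were seen, from the lists above. The partners that Nlrc4 needs were unequal in level. Naip5 and Naip6, whose products detect flagellin, stood at 6.25 TPM in replicate 1 and 5.84 TPM in replicate 2 and at 4.01 and 3.66 TPM, while Naip1, whose product detects the secretion needle protein, had 9 and 11 counts. Gsdme, the gasdermin cut by caspase-3, stood at 2.96 and 3.07 TPM, far below Gsdmd at 87.3 and 91.6 TPM. Nek7, which encodes an Nlrp3 cofactor, stood at 32.2 and 31.1 TPM, P2rx7, the ATP-gated channel upstream of potassium efflux, at 18.9 and 18.7 TPM, and Il18 at 57.3 and 38.3 TPM.

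Slc15a4, a peptide transporter gene of the NOD list, stood at 22.8 TPM in replicate 1 and 86.9 TPM in replicate 2, but had 1201 and 1569 counts and 19.7 and 18.1 TPM in the second quantification. In replicate 2, 60.3 of the 86.9 TPM were assigned to Slc15a4-211, a processed transcript of 166 bases with 9.92 counts and an effective length of 4.94 bases. The complete coding transcript Slc15a4-201 stood at 20.3 and 16.1 TPM. Gm22690, the microRNA gene inside Ripk2, had 0 counts in the first quantification and 24.8 TPM in replicate 1 and 17.4 TPM in replicate 2 in the second, from 10.6 and 15.5 counts.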
